A study of Mus musculus with 15 samples.

Results

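The extracellular matrix genes of mouse uterine epithelium were followed across 5 groups of RNA sequencing libraries. Members were chosen by name: collagen and laminin chains, fibulins, fibrillins, microfibril-associated proteins, Adamts and Mmp proteases, Timp inhibitors, periostin (Postn), Sparc, lysyl oxidases, fibronectin (Fn1) and elastin (Eln) that are listed in the Ctrl or E-OEX tables. The rule found 91 genes among the 8384 genes of those tables, out of 28269 genes listed in any table. Of the 91, 80 are listed in the Ctrl tables, 82 in the E-OEX tables, 71 in both and 89 in the U-OEx tables, where Col6a5 and Col13a1 are missing from the list. By role there were 9 fibrillar collagens, 9 network and basement membrane collagens, 15 beaded, fibril-associated and transmembrane collagens, 8 laminin chains, 17 elastic fibre, crosslinking and adhesive glycoproteins, and 33 proteases and inhibitors.

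The groups were wild-type luminal epithelium (Ctrl-LE), the sheet that lines the uterine cavity, and wild-type glandular epithelium (Ctrl-GE), from the tubes that run into the uterine wall, with both epithelia of E-OEX mice (E-OEX-LE, E-OEX-GE) and the luminal epithelium of U-OEx mice (U-OEx-LE). Each group held 3 libraries of total RNA, all taken at day 4. The labels give the genotype of E-OEX and U-OEx alike as overexpression of Notch1, a receptor through which neighbouring cells signal to each other. What the 2 abbreviations stand for, the promoter or Cre driver, the strain and the age are not given in the sources used here, and nothing says that replicates came from separate animals, so p-values may measure technical spread only.

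The matrix under an epithelium has 2 layers. The basement membrane is a sheet of laminin trimers, each built from an alpha, a beta and a gamma chain, and of type IV collagen, while the stroma beneath it holds fibrils of type I, III and V collagen with fibronectin, microfibrils and elastin. Fibrillar collagens are made mainly by fibroblasts, the laminin chains Lama3 and Lamb3 mainly by epithelia, and the uterine stroma loosens and is rebuilt around implantation, when Mmp and Adamts proteases cut matrix proteins and Timp proteins inhibit Mmp enzymes.

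Values are scaled reads, that is read counts divided by 1 factor per library, so that 1 read is worth 0.865 to 1.15 depending on the library. The listed genes held 1980800 to 4797424 reads per library in Ctrl and E-OEX, whose tables hold selected genes so that these sums are not the depth, and 13541644 to 14981505 in U-OEx. The Ctrl-LE libraries were unlike each other in their stromal content. The summed value of 10 stromal fibroblast markers was 271 in Ctrl-LE replicate 1, 2905 in replicate 2 and 1076 in replicate 3, and that of 4 mesothelial markers was 117, 3565 and 1100 in the same order. The GE libraries of both genotypes held between 8107 and 18705 scaled reads of the same stromal markers, against 179 to 476 in E-OEX-LE and 419 to 1033 in U-OEx-LE. Vessel markers were also higher in the GE libraries. The sum of 9 endothelial markers was 3960 to 14076 in GE and 140 to 388 in the luminal libraries. That of 7 pericyte markers was 3272 to 9707 in GE and 13.5 to 358.5 in the luminal libraries. Fewer cells of a type and less RNA per cell cannot be told apart in such samples.

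**Figure D1:**
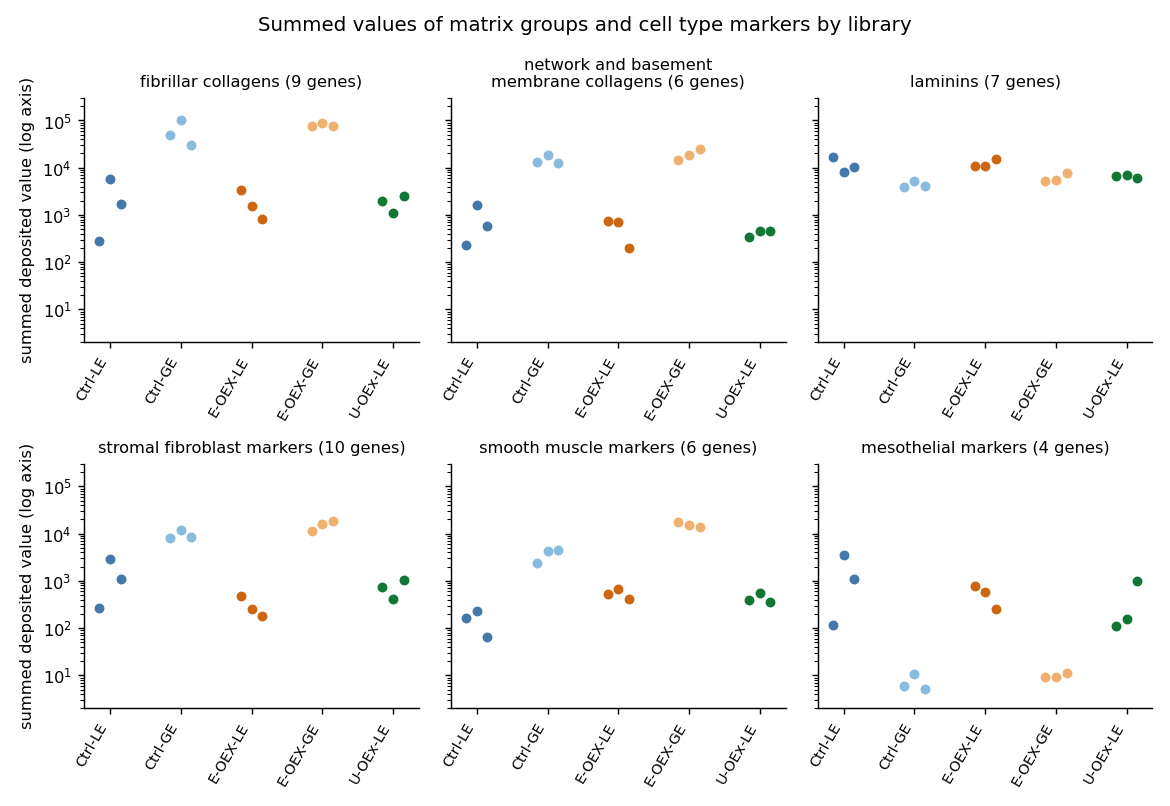
Summed deposited values (scaled reads, log axis) of 3 groups of matrix genes and 3 lists of cell type markers, 1 point per library, over the genes of each list that are listed in the tables of every genotype. The fibrillar collagens lie between 283 and 5797 in the luminal libraries and at 30902 or more in the 6 glandular libraries, the stromal fibroblast markers are also higher in every glandular than in every luminal library, and the laminins are higher in Ctrl-LE and E-OEX-LE than in the glandular libraries.

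Most matrix genes were higher in the glandular than in the luminal libraries of both genotypes. The Ctrl and E-OEX tables list only genes that differ between the epithelia, with a log2 ratio of group means of about 1 or more in size, so this difference is a description and carries no test. In wild type 71 of 80 listed members (88.8%) were higher in GE, against 56.95% of all 6414 listed genes, with a median GE minus LE difference of 3.91 on the log2(value + 1) scale against 1.36 for all listed genes. In E-OEX the count was 76 of 82 (92.7%, against 63.9% of 4903 listed genes) and the median was 4.26 against 1.75. With quantile normalization the medians were 3.23 against 0.77 in wild type and 3.04 against 0.43 in E-OEX, where 74 of 82 members were higher in GE and Fbn2 (-0.03) and Col23a1 (-0.28) turned to the luminal side. The members nearest to the listing limit were Adamts16 in wild type, with a log2 ratio of 1.10, and Col4a5 in E-OEX, also with 1.10. Of the 123 genes with a matching name in the U-OEx tables, which list genes without regard to this difference, 72.4% were listed in the Ctrl or E-OEX tables, against 28.8% of all 27946 genes. The latter include genes at 0 in every U-OEx-LE library, such as Ttr and Twist2, so the shares do not compare genes of like level.

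All 9 fibrillar collagens were on the glandular side in both genotypes, led by the chains of type I and type III collagen. Col1a1, which encodes the main chain of type I collagen, had values of 53.9, 1693 and 475 in the 3 Ctrl-LE libraries and of 18185, 37573 and 11496 in Ctrl-GE. In E-OEX it had 626, 220 and 88.5 in LE and 29295, 31639 and 25731 in GE. All glandular libraries were above all luminal ones, and the 3 Ctrl-LE libraries had the same order as in the stromal markers. The GE minus LE difference of Col1a1, 5.81, was the highest of the group in wild type and that of Col27a1, a chain of cartilage and developing tissues, was the lowest (3.61). In E-OEX the highest was Col5a1 (7.14) and the lowest Col5a2 (1.40). Per kilobase of exon, Col1a1 was the most abundant member in both glandular groups, at 3416 scaled reads per kilobase in Ctrl-GE and 4402 in E-OEX-GE.

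The 2 chains of the common type IV collagen of basement membranes, Col4a1 and Col4a2, were also higher in the glandular libraries. The part of stromal and vessel cells in these values was not tested. Their genes lie head to head on chromosome 8 (GRCm38), where the annotated genes overlap by 22 bases. Col4a1 had 57.0, 390 and 122 scaled reads in Ctrl-LE and 5500, 6953 and 5785 in Ctrl-GE, and Col4a2 had 18.7, 201 and 83.8 against 3003, 3972 and 3085, so that the 2 genes ranked the 3 luminal libraries alike. Within this role group Col15a1, a basement membrane collagen of vessels and muscle, had the highest difference in both genotypes (5.60 in wild type and 8.93 in E-OEX). Col8a2, a short chain network collagen known from Descemet's membrane of the eye, had a difference of -1.42 in wild type, with values of 4.14, 186 and 49.2 in Ctrl-LE and of 18.5, 19.9 and 5.19 in Ctrl-GE. The groups overlapped, since Ctrl-LE replicate 1 lay below every glandular library, and replicate 2 was highest, as in the mesothelial markers. In E-OEX the lowest was Col4a4 (-1.88), a chain of the kidney type network.

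**Figure D2:**
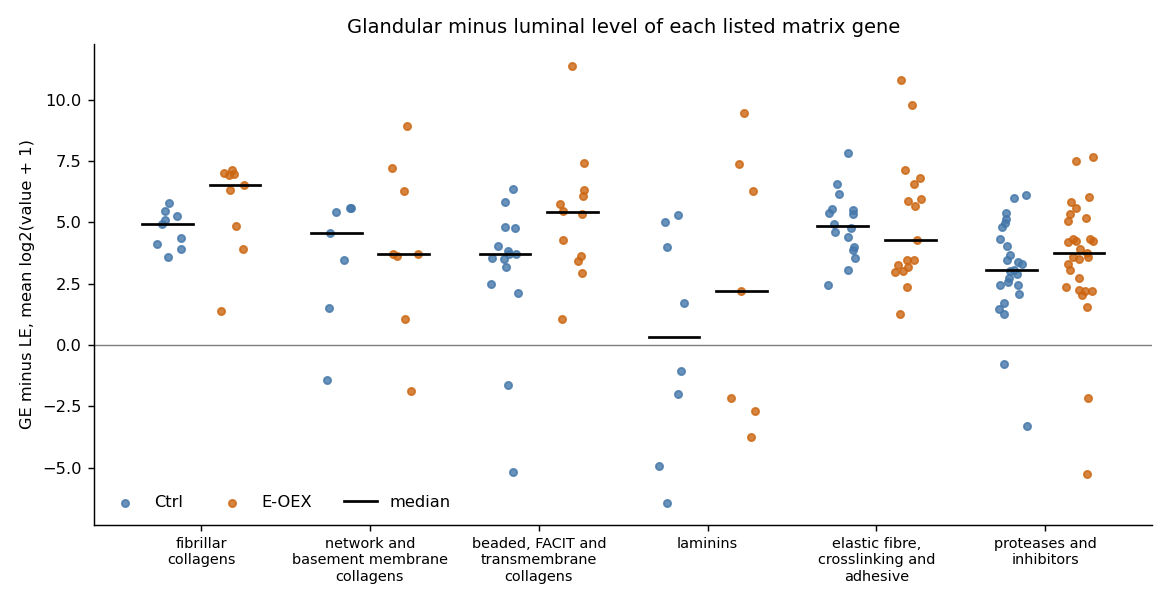
Difference between the mean log2(value + 1) of the glandular and of the luminal libraries for each listed matrix gene, by role and genotype (80 genes in Ctrl, 82 in E-OEX, bars at the medians). Nearly all collagens, elastic fibre genes and proteases lie above 0, while the laminins split into a glandular and a luminal set, with medians of 0.33 in Ctrl and 2.19 in E-OEX.

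Among the other collagens Col6a4, a chain that takes the place of the alpha-3 chain in type VI collagen, stood highest in both genotypes. Its values were 5.18, 22.5 and 8.94 in Ctrl-LE and 891, 1132 and 813 in Ctrl-GE, a difference of 6.37. It was listed at 0 in all 3 E-OEX-LE libraries. The lowest were Col28a1 in wild type (-5.17), a collagen best known from nerve sheaths, and Col23a1 in E-OEX (1.06), a transmembrane collagen. In the elastic fibre and adhesive group all 16 members listed in wild type and all 17 listed in E-OEX were higher in GE. Fbln7, a cell adhesive fibulin, led it in wild type (7.84) and Mfap2 was lowest (2.46), while in E-OEX Sparcl1, a Sparc-like glycoprotein of vessels and stroma, led with 10.81 and Fbn2, a fibrillin of microfibrils, was lowest (1.26). Mfap4, a microfibril-associated glycoprotein of elastic tissues, had 3.11, 3.07 and 3.35 in Ctrl-LE against 295, 507 and 178 in Ctrl-GE, at least 103-fold higher in GE when LE is set to 3 reads per library. Of the proteases and inhibitors, 23 of 25 were higher in GE in wild type and 27 of 29 in E-OEX. Adamts12 was at least 47.2-fold higher in GE in wild type, and Mmp2, the gelatinase of stromal cells, had the highest difference in E-OEX (7.66). Mmp10, a stromelysin that epithelia make at wound edges, was lowest in both genotypes: it was listed at 0 in all Ctrl-GE libraries against 13.5, 9.22 and 5.59 in Ctrl-LE, and had 5.01, 0 and 0 in E-OEX-GE against 73.0, 154 and 29.1 in E-OEX-LE.

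Laminin chains did not share this side. In wild type 4 of the 8 chains were higher in GE and 4 in LE, and the luminal ones included Lama3, Lamb3 and Lamc1. Lama3 had values of 8562.5, 2945 and 5245 in Ctrl-LE and of 129, 196 and 181 in Ctrl-GE. For Lamb3 they were 1913, 748 and 746 in LE and 8.76, 10.4 and 13.8 in GE, the lowest GE minus LE difference of the laminins in wild type (-6.43) and also in E-OEX (-3.75). In both genes the luminal and glandular libraries did not overlap. Lama2, the alpha chain of muscle and stromal basement membranes, had the highest difference (5.31 in wild type), with 3.11, 42.0 and 16.8 in LE and 575, 859 and 391 in GE. Per kilobase of exon Lamc1 was the most abundant listed member in Ctrl-LE, at 861 scaled reads per kilobase, and Lama3 had 520.

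**Figure D3:**
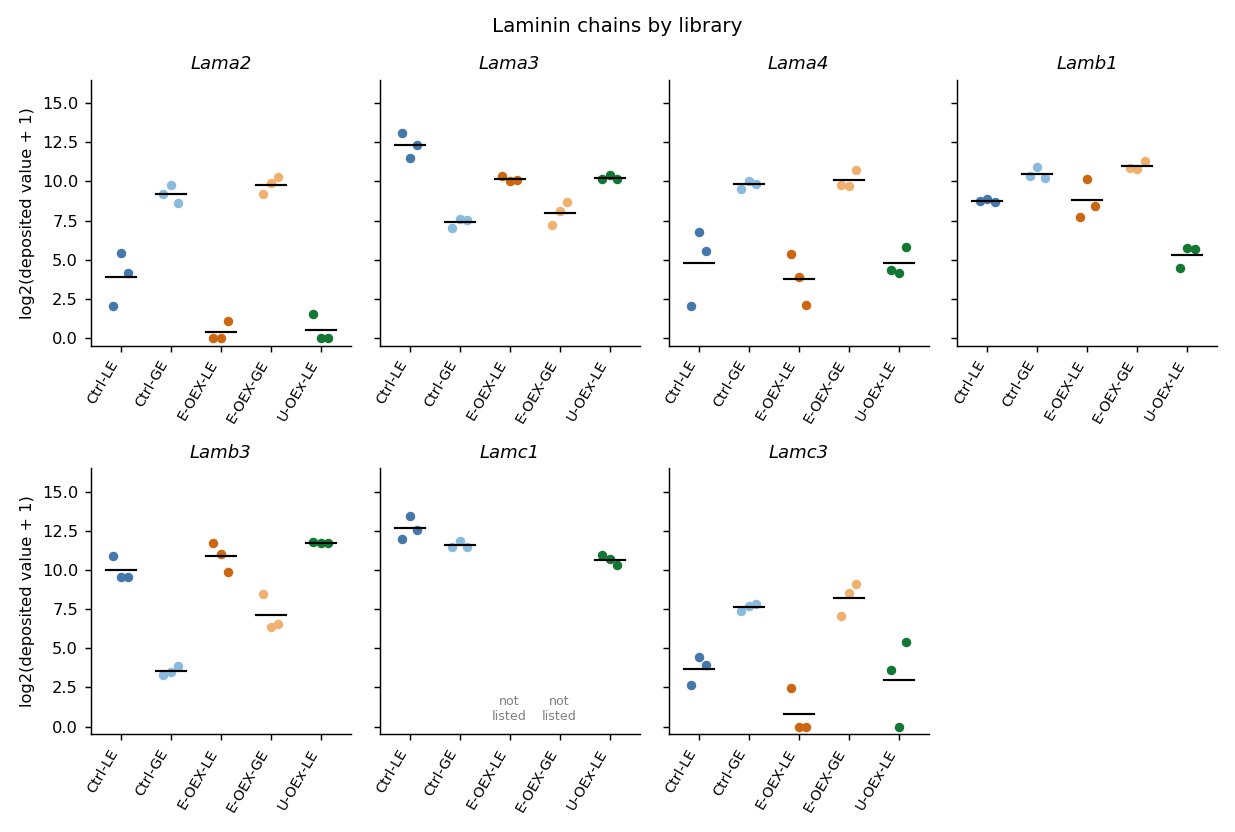
log2(deposited value + 1) of 7 laminin chains, 1 point per library with the group mean as a bar; Lamc1 is not listed in the E-OEX tables. Lama3 and Lamb3 are highest in the luminal groups, Lama2, Lama4 and Lamc3 in the glandular groups, and Lamb1 falls to between 21.1 and 53.3 scaled reads in U-OEx-LE.

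The first tested comparison asked how the luminal epithelium of E-OEX differed from that of wild type. Fold changes between genotypes are differences in mean log2(value + 1) of reads rescaled together over the shared genes, with the standard error, and adjusted p-values are from limma over all genes tested. In each comparison of genotypes only genes listed for both groups could be tested. The Ctrl and E-OEX tables hold genes chosen for their GE to LE difference, so the libraries compared also took part in that choice. Of the 71 members listed in both sets of tables, 64 passed the filter on low values. Of these, 5 rose and 4 fell (14.1%, beside 10.7% called among all 2600 genes tested, 5.12% higher and 5.54% lower), and the median over the 64 was -0.77 against -0.09 over all genes tested. In 20 members there was no overlap between E-OEX-LE and Ctrl-LE (31.2%, beside 29.9% of all genes tested). The 5 that rose were Postn, Fn1, Col5a2, Fbn2 and Fbln7. The 4 that fell were Lama2, Lama3, Sparcl1 and Col6a4.

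Postn (ENSMUSG00000027750, chr3:54361109-54391037 on the plus strand, GRCm38) encodes periostin, a secreted protein that binds collagen, fibronectin and integrins and is made by fibroblasts in remodelling tissue. Its values were 0, 20.5 and 15.7 in Ctrl-LE and 421, 127 and 126 in E-OEX-LE. All 3 E-OEX-LE libraries were above all 3 Ctrl-LE libraries, and the log2 fold change was 4.64 ± 1.11 (SE, adjusted p = 0.0292). The call was lost with a pseudocount of 0.1 (adjusted p = 0.0843) and without E-OEX-LE replicate 1, E-OEX-LE replicate 2 or Ctrl-LE replicate 3 (adjusted p up to 0.129). Because Postn was also the most abundant member in U-OEx-LE, the 250 bases before its start are printed from the RefSeq promoter table (GRCm38.p6, chr3:54360857-54361106, plus strand), with a TATAAA match that ends 21 bases before the start in capitals.
Postn: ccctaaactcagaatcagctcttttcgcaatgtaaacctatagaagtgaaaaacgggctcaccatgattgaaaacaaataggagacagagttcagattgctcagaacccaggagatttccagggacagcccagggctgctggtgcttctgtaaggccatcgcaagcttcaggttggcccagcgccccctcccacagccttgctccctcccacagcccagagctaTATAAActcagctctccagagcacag
The letters GTGGGAA, a core motif of the Notch partner RBPJ, searched on both strands, do not occur in this window. They occur in 5.42% of the 32851 windows of the table and in 3 of the 64 windows of the 57 members that have an entry. TATAAA occurs on either strand in 12.4% of all windows and in 7 of the 64 member windows. A match is a description of letters and not of a bound site.

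Fn1, fibronectin, the adhesive glycoprotein that cells bind through integrins, had values of 96.3, 206 and 111 in Ctrl-LE and of 1305, 1507 and 309 in E-OEX-LE, which gave a log2 fold change of 2.52 ± 0.64 (adjusted p = 0.0346). Col5a2, a chain of type V collagen that sits inside type I fibrils and sets their diameter, had 78.7, 138 and 77.1 in Ctrl-LE and 1722, 883 and 538 in E-OEX-LE, or 3.12 ± 0.51 (adjusted p = 0.00647). For Fbn2 they were 0, 4.10 and 0 against 88.5, 66.3 and 39.9 (5.12 ± 0.83, adjusted p = 0.00647). Fbln7 had 0, 4.10 and 0 against 54.8, 46.3 and 6.48 (3.91 ± 1.005, adjusted p = 0.0367). In each of these 4 genes the groups did not overlap, and the fold changes of Fbn2 and Fbln7 rest on at most 4 reads in a Ctrl-LE library. The call for Fbln7 was lost with a pseudocount of 0.1 and with edgeR (adjusted p up to 0.0553). It was also lost without E-OEX-LE replicate 1 or 2 or Ctrl-LE replicate 1 or 3 (adjusted p up to 0.151). That for Fn1 was lost without any 1 library except E-OEX-LE replicate 3 (adjusted p up to 0.141).

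The fibrils' main chains did not follow Col5a2. None of the other 8 fibrillar collagens passed the threshold, and their fold changes ran from -2.04 for Col11a1, listed at 0 in all E-OEX-LE libraries, to 0.46 for Col27a1. Col1a1 had a log2 fold change of -0.78 ± 1.09 (adjusted p = 0.688), Col1a2 of -0.97 ± 0.98 (adjusted p = 0.568) and Col3a1 of -1.23 ± 1.13 (adjusted p = 0.52). Col3a1 and Col5a2 are neighbours on chromosome 1, facing each other across a gap of 24614 bases. For these 3 the E-OEX-LE values lay between those of Ctrl-LE replicates 1 and 2, so the spread of wild type covers them. Of 10 stromal fibroblast markers tested, none rose and 2 fell, and their sum was 271 to 2905 in Ctrl-LE and 179 to 476 in E-OEX-LE. The part of stromal cells in the values of Postn, Fn1 and Col5a2 was not tested. Of 5 smooth muscle markers tested 1 rose and none fell, with a median log2 fold change of -0.83. The mean of Smtn was 68.1 in Ctrl-LE and 508 in E-OEX-LE, while that of Acta2 was 64.9 and 17.4 and that of Cnn1 10.9 and 3.26.

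**Figure D4:**
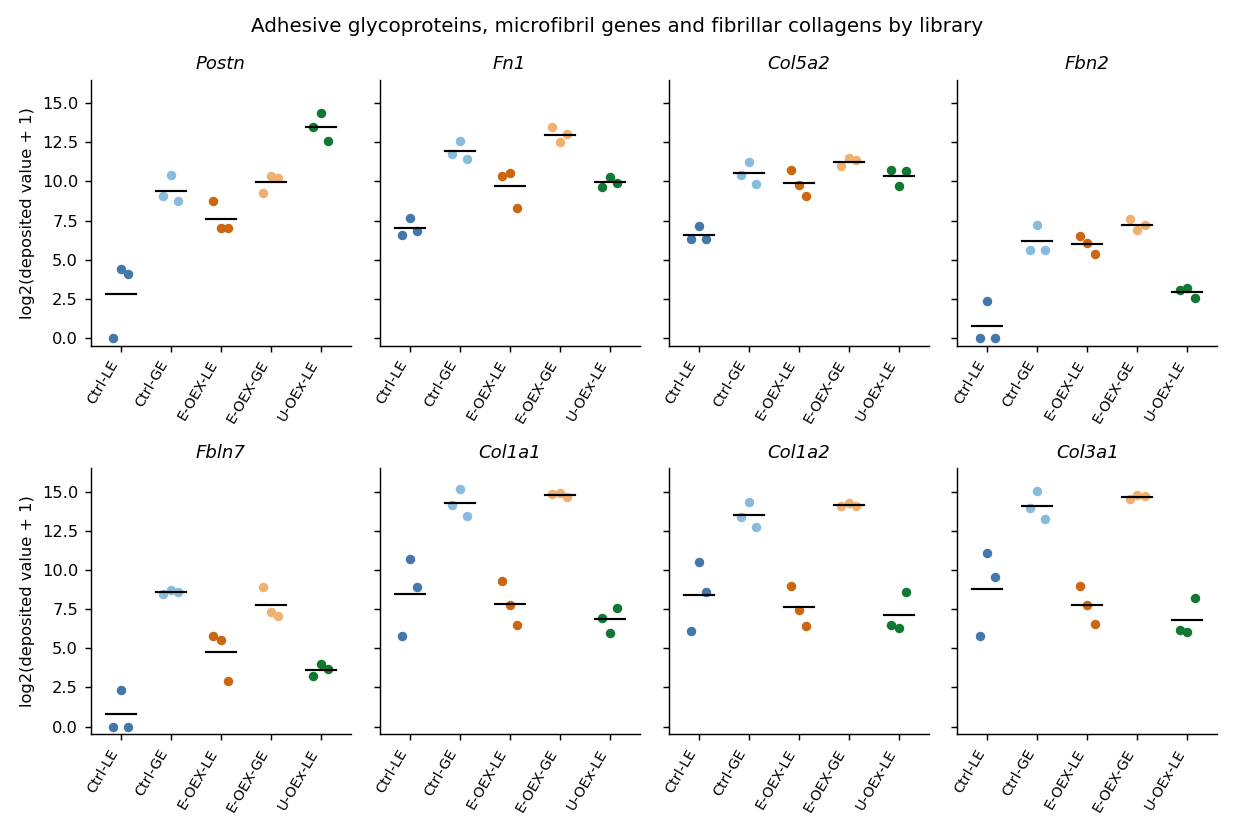
log2(deposited value + 1) of 8 matrix genes, 1 point per library with the group mean as a bar. Postn, Fn1 and Col5a2 are higher in all 6 Notch1 luminal libraries than in the 3 Ctrl-LE libraries, while Col1a1, Col1a2 and Col3a1 overlap between the luminal groups and are higher in every glandular library.

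Of the 4 members that fell, 3 did so to few or no reads and Lama3 did not. Lama3 had values of 8562.5, 2945 and 5245 in Ctrl-LE and 1320, 1051 and 1076 in E-OEX-LE, with no overlap and a log2 fold change of -2.33 ± 0.49 (adjusted p = 0.0185). Lamb3 did not fall with it (0.71 ± 0.59, adjusted p = 0.476). The call for Lama3 was lost without E-OEX-LE replicate 1 or 2 or Ctrl-LE replicate 3 (adjusted p up to 0.0977). Sparcl1 went from 18.7, 111 and 59.2 to 5.48, 0 and 1.08 (-4.58 ± 0.90, adjusted p = 0.0148). Lama2, with 0, 0 and 1.08 in E-OEX-LE, was at least 7.57-fold lower (adjusted p = 0.035, or 0.0628 with only genes of a mean of at least 10 tested) and Col6a4, listed at 0 in all 3 E-OEX-LE libraries, at least 4.54-fold lower (adjusted p = 0.0166), with E-OEX-LE set to 3 reads per library. Within Ctrl-LE these 3 low genes were highest in replicate 2, the library with the most stromal marker reads, and the part of stromal content in the falls was not tested. Sparcl1 lost its call without E-OEX-LE replicate 2 or Ctrl-LE replicate 2 or 3 (adjusted p up to 0.0807). Lama2 and Col6a4 lost theirs without E-OEX-LE replicate 1 or 2 or Ctrl-LE replicate 2 or 3 (adjusted p up to 0.145 and 0.0837). Col15a1 had 5.18, 178 and 78.2 in Ctrl-LE and 5.48, 4.54 and 4.32 in E-OEX-LE, and did not pass (-3.10 ± 1.09, adjusted p = 0.105). Mfap4, at 3.07 to 3.35 in Ctrl-LE and listed at 0 in E-OEX-LE, did not pass either (adjusted p = 0.0653).

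No network collagen and no protease or inhibitor passed with limma in this comparison. At an unadjusted p under 0.05 there were 1 of 5 network collagens, also 1 with edgeR and 1 with DESeq2 at their adjusted p, and 6 of 19 proteases and inhibitors, of which edgeR called 1 and DESeq2 called 2. Of the 19 proteases and inhibitors tested, Mmp10 had the highest fold change (2.66 ± 0.77, adjusted p = 0.0547) and Mmp3 the lowest (-2.65 ± 0.78, adjusted p = 0.0593). Of 5 matrix receptors, 9 collagen synthesis genes and 7 proteoglycans and linkers tested, Tll1, a tolloid protease that trims procollagen (-3.75 ± 0.74, adjusted p = 0.0149), and Prelp, a leucine-rich proteoglycan that anchors basement membranes (-2.52 ± 0.70, adjusted p = 0.048), fell and none rose. Without Ctrl-LE replicate 2 the median over the members moved from -0.77 to 0.14, and 4 members rose and 1 fell, with Col6a4, Sparcl1, Lama2 and Fn1 no longer past the threshold (adjusted p = 0.052, 0.052, 0.0963 and 0.06). The fitted log2 fold changes without that library were -3.11 for Col6a4, -4.08 for Sparcl1, -2.89 for Lama2 and 2.78 for Fn1. With all libraries they were -3.58, -4.58, -3.60 and 2.52. The number called was 3 without E-OEX-LE replicate 1, 2 without E-OEX-LE replicate 2 and 2 without Ctrl-LE replicate 3, and Col5a2 and Fbn2 passed with each of the 6 libraries left out in turn.

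The U-OEx luminal epithelium was compared with the same Ctrl-LE libraries. Of 76 members tested, 18 rose and 16 fell (44.7%, beside 56.9% called among all 5950 genes tested, 29.1% higher and 27.8% lower), with a median of -0.44 against 0.09 over all genes. The share called was thus below that of all genes tested, and 35 members had no overlap between the groups (46.1%, beside 63.8% of all genes tested). Only genes listed in the Ctrl tables could be tested, a choice in which the same Ctrl-LE libraries took part. Postn, Mmp9, Col25a1, Adamtsl4, Col14a1, Col23a1, Col5a2 and Adamts1 had the highest rises, and Col28a1, Col9a2, Adamts16, Mfap5, Lamb1, Lama2, Col6a4 and Adamts14 the largest falls. E-OEX-LE and U-OEx-LE share the Ctrl-LE libraries, so their fold changes are given side by side and not as independent results.

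**Figure D5:**
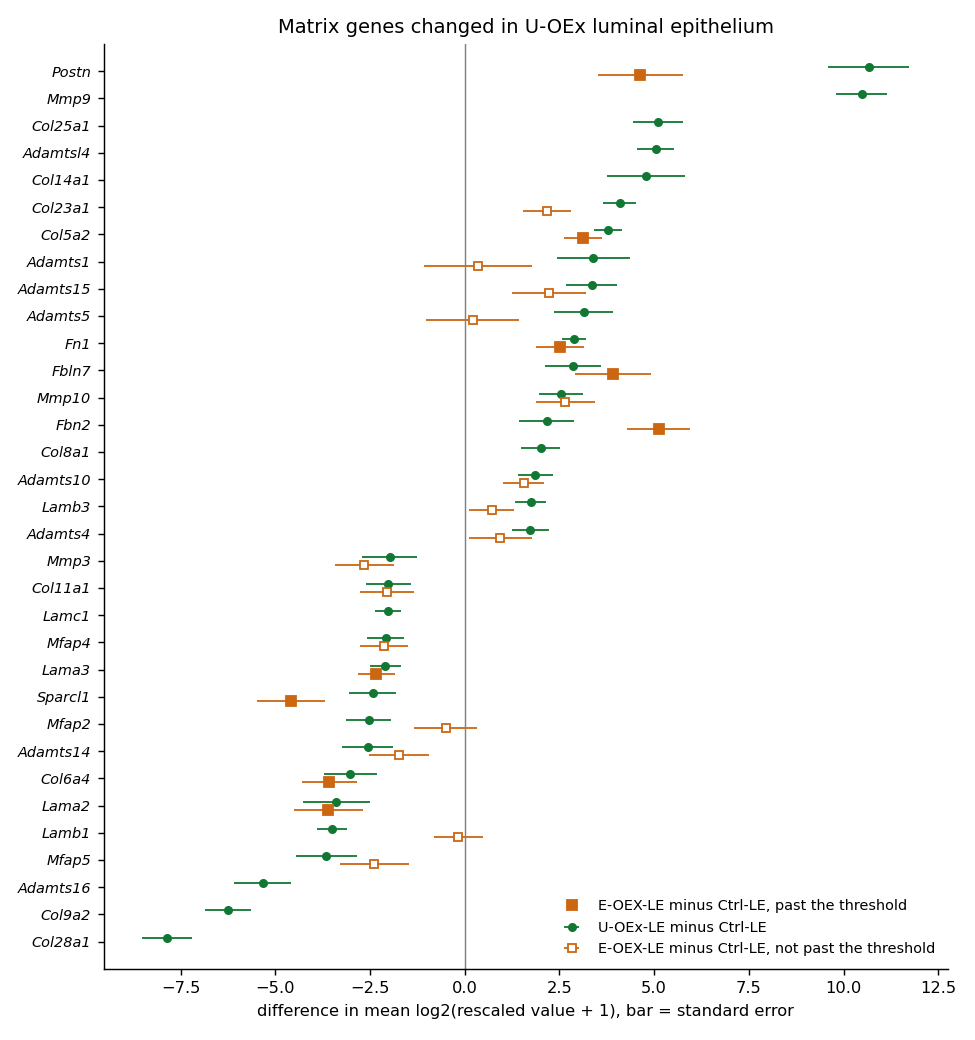
Difference in mean log2(rescaled value + 1) from Ctrl-LE, with its standard error, for matrix genes past the threshold in U-OEx-LE (circles), and for the same genes in E-OEX-LE where tested (squares, filled where past the threshold). The fitted values run from -7.85 for Col28a1 to 10.66 for Postn in U-OEx-LE, and both contrasts share the 3 Ctrl-LE libraries.

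Postn had values of 11229, 20833 and 6027 in U-OEx-LE against 0, 20.5 and 15.7 in Ctrl-LE, a log2 fold change of 10.66 ± 1.08 (adjusted p = 1.05e-04). It was the most abundant member of that group, at 1459 scaled reads per kilobase and with 35.6% of all reads in the members, and its lowest U-OEx-LE library was above the highest glandular library of either genotype (1360). Fn1 had 801, 1221 and 972 in U-OEx-LE (2.89 ± 0.33, adjusted p = 1.75e-04). Col5a2 had 1674, 851 and 1637 (3.78 ± 0.37, adjusted p = 8.73e-05). Fbln7 (2.86 ± 0.74, adjusted p = 0.0111) and Fbn2 (2.16 ± 0.74, adjusted p = 0.0353) rose as well, to between 4.80 and 15.1 scaled reads. The call for Fbn2 was lost with edgeR, with DESeq2 and without each of the 6 libraries except Ctrl-LE replicate 2 (adjusted p up to 0.188). As in E-OEX, Col1a1 (-1.64 ± 1.06, adjusted p = 0.216), Col1a2 (-1.31 ± 1.03, adjusted p = 0.306) and Col3a1 (-2.02 ± 1.201, adjusted p = 0.182) did not pass, with values of 63.1 to 380 in U-OEx-LE.

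Of the other collagens, Col14a1, Col23a1 and Col25a1 rose by more than Col8a1. Col14a1, a fibril-associated collagen of dense connective tissue, had 7.25, 255 and 91.7 in Ctrl-LE and 1866, 1603 and 1402 in U-OEx-LE (4.78 ± 1.02, adjusted p = 0.00464). Col23a1 had 7.25, 10.2 and 7.82 against 132, 256 and 123 (4.10 ± 0.43, adjusted p = 1.31e-04). Col25a1, a transmembrane collagen known from neurons, was listed at 0 in Ctrl-LE, and with 39.5, 13.3 and 66.3 in U-OEx-LE it was at least 12.3-fold higher (adjusted p = 3.73e-04). Col8a1, also listed at 0 in Ctrl-LE, passed at 1.78 to 3.84 in U-OEx-LE (adjusted p = 0.0109), a few reads only, and did not pass with DESeq2 (adjusted p = 0.112). Col14a1 is not listed in the E-OEX tables.

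The largest falls were of 2 collagens that are luminal in wild type. Col28a1 had 262, 353 and 911 in Ctrl-LE and 0, 0.889 and 2.88 in U-OEx-LE, at least 183-fold lower (adjusted p = 4.55e-05). Col9a2, a chain of the type IX collagen of cartilage fibrils, had 870, 788 and 1256 against 14.7, 26.7 and 3.84 (-6.24 ± 0.61, adjusted p = 8.83e-05). Neither is listed in the E-OEX tables. Col6a4, at 1.84, 0 and 0, was at least 4.36-fold lower (adjusted p = 0.0067), and Col11a1, a chain of the cartilage fibril, fell from 1.12 to 6.15 scaled reads to 0 in every library (adjusted p = 0.0201), a call lost with DESeq2 and without any 1 of the U-OEx-LE libraries (adjusted p up to 0.0658). Col15a1 did not pass, with 30.3, 20.4 and 31.7 in U-OEx-LE (-0.68 ± 1.07, adjusted p = 0.607).

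Laminins were the role group with the largest share past the threshold: 6 of 8 tested, beside 56.9% of all genes tested. Of these 6, Lamb3 rose and 5 fell, Lama2, Lama3, Lamb1 and Lamc1 among them. Lamb3 had 3566, 3401 and 3462 in U-OEx-LE, above the 746 to 1913 of Ctrl-LE (1.74 ± 0.41, adjusted p = 0.0073). Lama3 had 1149, 1341 and 1160, below 2945 to 8562.5 (-2.09 ± 0.40, adjusted p = 0.00275). Lama3 and Lamb3 thus changed in different directions. Lamb1 and Lamc1, the beta and gamma chains of the most widespread laminins, fell from 436, 461 and 419 to 21.1, 53.3 and 49.9 (-3.50 ± 0.40, adjusted p = 1.86e-04) and from 4111, 11292 and 5962 to 1969, 1673 and 1286 (-2.03 ± 0.34, adjusted p = 0.00141). Lama2 was at least 7.26-fold lower (adjusted p = 0.012), a call lost without U-OEx-LE replicate 2 or replicate 3 (adjusted p up to 0.0564).

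In the elastic fibre and adhesive group, the microfibril genes Mfap2, Mfap4 and Mfap5 and Sparcl1 fell. Mfap5 had 4.14, 47.1 and 13.4 in Ctrl-LE and 0, 0.889 and 0 in U-OEx-LE, at least 7.60-fold lower (adjusted p = 0.00551). Mfap4 passed (adjusted p = 0.00652) with both groups at or under 3 reads, so no fold is given, and the call was lost with DESeq2 (adjusted p = 0.0583). Eln, the elastin gene, had a log2 fold change of -0.08 ± 0.96 (adjusted p = 0.947) and Sparc one of -1.51 ± 1.21 (adjusted p = 0.316).

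Of 24 proteases and inhibitors tested, 8 rose and 3 fell, in a comparison that called 56.9% of all genes tested, 29.1% higher and 27.8% lower. Mmp9, the gelatinase of neutrophils and macrophages, was listed at 0 in all 3 Ctrl-LE libraries and reached 1785, 498 and 3168 in U-OEx-LE, which is at least 565-fold more (adjusted p = 1.46e-05). Ptprc, the pan-leukocyte marker CD45, had 1570, 441 and 2705 in the same 3 libraries and is listed in the U-OEx tables only, and of 4 immune markers tested against Ctrl-LE 3 rose and none fell. The part of leukocytes in the Mmp9 value was not tested. Adamtsl4, a protein of microfibrils that lacks the protease domain, had 32.1, 89.1 and 23.5 in Ctrl-LE and 1223, 2009 and 1118 in U-OEx-LE (5.05 ± 0.49, adjusted p = 8.52e-05). Adamts1, a protease of the proteoglycan versican, had 8.29, 207 and 50.3 against 265, 717 and 631 (3.40 ± 0.96, adjusted p = 0.0167), and the call was lost without U-OEx-LE replicate 2, U-OEx-LE replicate 3 or Ctrl-LE replicate 3 (adjusted p up to 0.0695). Adamts16, a protease known from gonad and kidney development, fell from 1314, 354 and 1456 to 8.27, 49.8 and 22.1 (-5.34 ± 0.74, adjusted p = 5.24e-04). Adamts14, a procollagen amino-propeptidase, was at least 2.91-fold lower (adjusted p = 0.0124), which was lost without U-OEx-LE replicate 2 or 3 or Ctrl-LE replicate 3 (adjusted p up to 0.0551).

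The neighbours Mmp3 and Mmp10, both stromelysins and 46376 bases apart on the plus strand of chromosome 9 (GRCm38), went in different directions in U-OEx-LE. Mmp10 had 13.5, 9.22 and 5.59 in Ctrl-LE and 33.1, 107 and 52.8 in U-OEx-LE, a rise of 2.53 ± 0.58 (adjusted p = 0.00662). Mmp3 had 3.11, 15.4 and 2.24 against 0, 0.889 and 0.960 and was at least 2.46-fold lower (adjusted p = 0.0453), a call lost with a pseudocount of 0.1, on the deposited scale and without each of the 6 libraries except Ctrl-LE replicate 3 (adjusted p up to 0.157). Their 250 bases before the start are set side by side from the RefSeq promoter table (GRCm38.p6, plus strand, chr9:7445572-7445821 for Mmp3 and chr9:7502092-7502341 for Mmp10), with TATAAA and the AP-1 type motif TGANTCA in capitals.
Mmp3: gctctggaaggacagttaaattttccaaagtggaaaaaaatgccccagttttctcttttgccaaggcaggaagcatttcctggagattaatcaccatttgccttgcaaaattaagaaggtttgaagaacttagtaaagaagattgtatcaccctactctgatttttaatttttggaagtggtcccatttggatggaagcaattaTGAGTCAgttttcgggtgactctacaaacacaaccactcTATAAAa
Mmp10: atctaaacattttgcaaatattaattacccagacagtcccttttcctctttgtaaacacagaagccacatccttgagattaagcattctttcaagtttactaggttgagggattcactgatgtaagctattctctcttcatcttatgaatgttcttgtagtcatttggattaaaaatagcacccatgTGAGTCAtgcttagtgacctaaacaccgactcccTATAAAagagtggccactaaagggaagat
Each window holds 1 TGANTCA and 1 TATAAA, which do not overlap. The TGANTCA of Mmp3 starts 46 bases before the start and that of Mmp10 63 bases before it. The TATAAA of Mmp3 starts 7 bases before the start and that of Mmp10 29 bases before it. These distances rest on the annotated starts, which were not checked. TGANTCA, which reads the same on both strands, occurs in 6.75% of all 32851 windows and in 3 of the 64 windows of the members. Both motifs are thus found before both genes.

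The counts of other lists in U-OEx-LE against Ctrl-LE stand beside 56.9% called among all genes tested, 29.1% higher and 27.8% lower. Of the other matrix genes, 6 of 15 matrix receptors rose and 6 fell, led by Cd44, the hyaluronan receptor (4.75 ± 0.32, adjusted p = 1.63e-05), and Itga9, an integrin alpha chain that binds tenascin (-2.78 ± 0.41, adjusted p = 7.06e-04). Of 13 collagen synthesis genes 1 rose (P4ha3, a prolyl hydroxylase chain, at least 1.86-fold higher, adjusted p = 0.0128) and 3 fell, with Tll1 at -3.89 ± 0.56 (adjusted p = 6.19e-04). Of 9 proteoglycans and linkers 3 rose and none fell, and Srgn, the proteoglycan of leukocyte granules, rose most (5.92 ± 0.34, adjusted p = 9.85e-06). Of 11 stromal fibroblast markers tested, 1 rose and 5 fell. Without Ctrl-LE replicate 2 the median over the members was 0.31 in place of -0.44, with 20 members higher and 14 lower.

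The 2 Notch1 luminal groups were compared with each other over genes listed in the E-OEX tables. Of 69 members tested 4 rose and 6 fell in U-OEx-LE (14.5%, beside 15% called among all 4276 genes tested, 6.97% higher and 8.04% lower). The groups did not overlap in 18 members (26.1%, beside 38.2% of all genes tested). The members that were higher in U-OEx-LE were Postn, Col25a1, Col15a1 and Col23a1, and those lower included Lamb1, Col4a4, Fbn2, Fbln5 and Adamts2. Postn was 5.75 ± 0.56 higher on the log2 scale (adjusted p = 0.00335), since it had 126 to 421 scaled reads in E-OEX-LE and 6027 to 20833 in U-OEx-LE. Fn1 (0.08 ± 0.58, adjusted p = 0.943) and Col5a2 (0.37 ± 0.45, adjusted p = 0.612), which were above Ctrl-LE in both groups, did not pass between them. Lama3 did not pass either, at -0.05 ± 0.28 (adjusted p = 0.933).

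In U-OEx-LE the value of Col25a1 was at least 12.25-fold that of E-OEX-LE, where it was listed at 0 (adjusted p = 0.00522). Col15a1 had 4.32 to 5.48 in E-OEX-LE and 20.4 to 31.7 in U-OEx-LE (2.18 ± 0.51, adjusted p = 0.0269), and Col23a1 30.2 to 69.4 against 123 to 256 (1.65 ± 0.47, adjusted p = 0.0486). Lamb1 had 213, 1157 and 343 in E-OEX-LE against 21.1, 53.3 and 49.9 (-3.62 ± 0.69, adjusted p = 0.015). Fbn2 had 39.9 to 88.5 against 4.80 to 7.998 (-3.18 ± 0.52, adjusted p = 0.009). Col4a4 had 247 to 385 against 14.7 to 62.2 (-3.43 ± 0.56, adjusted p = 0.00857). Fbln5, a fibulin that tethers elastic fibres to cells, had 33.8 to 73.6 against 3.68 to 23.1 (-2.94 ± 0.76, adjusted p = 0.0359), and Adamts2, the main procollagen amino-propeptidase, had 94.5 to 203 against 11.6 to 77.8 (-2.40 ± 0.65, adjusted p = 0.0409). The call for Col23a1 was lost with a pseudocount of 0.1, with no filter, with quantile normalization, with edgeR and with replicate number as a block (adjusted p up to 0.0613). That for Adamts2 was lost with a pseudocount of 0.1, on the deposited scale, with edgeR and without any 1 of the 6 libraries (adjusted p up to 0.139). Col15a1 and Col23a1 lost theirs without any 1 library except E-OEX-LE replicate 1 (adjusted p up to 0.118 and 0.141). Col15a1 also lost it with replicate number as a block (adjusted p = 0.0522). Fbln5 lost it with edgeR (adjusted p = 0.063) and without U-OEx-LE replicate 1 or 3 or E-OEX-LE replicate 2 or 3 (adjusted p up to 0.144).

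Mmp23, a small membrane bound metalloprotease known from the ovary, was the second most abundant member per kilobase in both of these groups, at 589 and 1253 scaled reads per kilobase, and was higher in LE than in GE in E-OEX. It had 2012, 945 and 1175 in E-OEX-LE and 3037, 3133 and 2628 in U-OEx-LE, and the difference did not pass (1.03 ± 0.32, adjusted p = 0.062). Of 8 matrix receptors tested 1 rose, Itga4 (2.59 ± 0.57, adjusted p = 0.0222), an integrin alpha chain of leukocytes that binds fibronectin, and of 12 collagen synthesis genes 3 fell, led by Serpinh1, the collagen chaperone (-1.68 ± 0.42, adjusted p = 0.0318). The number of members called was 2 without U-OEx-LE replicate 1, 3 without U-OEx-LE replicate 3 and 18 without E-OEX-LE replicate 1. Postn and Col25a1 passed with each library left out.

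In the glands, few matrix genes passed the threshold between E-OEX and wild type. Of 70 members tested 3 rose and 1 fell (5.71%, beside 23.5% called among all 2851 genes tested, 9.72% higher and 13.8% lower), with a median of 0.20 against 0.05 over all genes. The groups did not overlap in 8 members (11.4%, beside 40.5% of all genes tested). Log2 fold changes of the members that did not pass ran from -1.32 for Fbln7 to 1.72 for Col6a6. Lamb3 had values of 8.76, 10.4 and 13.8 in Ctrl-GE and of 351, 81.6 and 94.6 in E-OEX-GE (3.13 ± 0.58, adjusted p = 0.00407), with no overlap, while Lama3 (0.16 ± 0.34, adjusted p = 0.793) did not pass. Of 6 markers of luminal epithelium tested in this comparison 2 rose, and the part of luminal cells in the Lamb3 value was not tested. Eln had 331, 667 and 558 in Ctrl-GE and 1156, 1625 and 2093 in E-OEX-GE (1.198 ± 0.29, adjusted p = 0.0165). Mmp17, a membrane anchored metalloprotease of smooth muscle and leukocytes, had 51.6, 94.8 and 82.2 against 250, 233 and 225 (1.202 ± 0.31, adjusted p = 0.0197). With the luminal libraries in the fit the calls for Eln and Mmp17 were lost (adjusted p = 0.634 and 0.437). Eln also lost its call without E-OEX-GE replicate 3 or Ctrl-GE replicate 1 (adjusted p up to 0.0597). Mmp17 lost its call without E-OEX-GE replicate 2 or Ctrl-GE replicate 1 (adjusted p up to 0.0718). All 6 smooth muscle markers tested rose in the same comparison, from a sum of 2418 to 4533 to one of 14055 to 17802, and their part in the rises of Eln and Mmp17 was not tested.

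Timp4, an inhibitor of metalloproteases, was the 1 member that fell in the glands. It had 330, 240 and 354 in Ctrl-GE and 10.01, 93.1 and 122 in E-OEX-GE, which gave a log2 fold change of -3.06 ± 0.72 (adjusted p = 0.0142) with no overlap. The call was lost with the luminal libraries in the fit (adjusted p = 0.143) and without Ctrl-GE replicate 1 (adjusted p = 0.0742). Of 5 markers of glandular epithelium tested in the same comparison 4 fell and none rose, with a median of -3.46 and a sum of 21022 to 28652 in Ctrl-GE against 4392 to 5412 in E-OEX-GE, and their part in the fall of Timp4 was not tested. None of the 9 fibrillar collagens passed with limma, and 0 did so at an unadjusted p under 0.05, with edgeR or with DESeq2, while their fold changes lay between -0.56 for Col24a1 and 0.44 for Col27a1, with Col1a1 at 0.07 ± 0.38 (adjusted p = 0.928). Col6a4 (1.06 ± 0.49, adjusted p = 0.152), Col15a1 (-0.08 ± 0.36, adjusted p = 0.908) and Mfap4 (1.10 ± 0.40, adjusted p = 0.0784) did not pass either. Among the other matrix genes Itga8, an integrin chain of smooth muscle (1.16 ± 0.31, adjusted p = 0.0227), and Aspn, asporin of the fibril surface (1.43 ± 0.34, adjusted p = 0.0144), rose most, and Tll1 fell (-3.10 ± 0.41, adjusted p = 7.06e-04). On the deposited scale, which moves the median of all shared genes from 0.05 to 0.49, 11 members rose and 1 fell. Without Ctrl-GE replicate 1 only Lamb3 passed.

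Whether the difference between the genotypes was unlike in glands and lumen was tested as an interaction, the GE minus LE difference in E-OEX less that in wild type. Only genes listed in both the Ctrl and E-OEX tables could be tested, and these tables hold genes chosen for their GE to LE difference. Genes that differ between the epithelia in just wild type or just E-OEX are therefore absent. Of 71 members 5 had a higher and 3 a lower difference in E-OEX (11.3%, beside 10.7% called among all 2933 genes tested, 5.83% higher and 4.91% lower). The 5 were Sparcl1 (5.48 ± 0.95, adjusted p = 0.00313), Col6a4 (5.02 ± 0.82, adjusted p = 0.00227), Lama2 (4.14 ± 1.03, adjusted p = 0.0216), Mfap4 (3.62 ± 0.69, adjusted p = 0.0054) and Lama3 (2.78 ± 0.62, adjusted p = 0.0137). The first 4 are higher in GE. Their deposited values were on average lower in E-OEX-LE than in Ctrl-LE and higher in E-OEX-GE than in Ctrl-GE. Deposited values of all shared genes had a median shift from wild type to E-OEX of 0.49 in GE and 0 in LE. The median interaction over all genes tested was 0.33. In the rescaled values none of these 4 passed in the glands, with Lama2 below 0.16. The deposited mean of Mfap4 in GE was 327 in wild type and 911 in E-OEX, that of Col6a4 945 and 3269, and that of Sparcl1 2064 and 4302. Col6a4, Lama2 and Mfap4 were at 3 reads or fewer in every E-OEX-LE library, so the size of their interaction depends on the setting. Mfap4 was also at 3 reads in every Ctrl-LE library, so its luminal change cannot be sized. Under the other settings it ran from 5.02 to 8.75 for Col6a4, from 3.83 to 6.47 for Lama2 and from 3.62 to 6.60 for Mfap4. Lama3 is higher in LE, and its GE minus LE difference went from -4.93 to -2.16. The 3 with a lower difference were Fbln7 (-4.83 ± 1.18, adjusted p = 0.0197), Fbn2 (-4.13 ± 0.98, adjusted p = 0.0166) and Col5a2 (-2.53 ± 0.65, adjusted p = 0.0249), whose luminal values were nearer to the glandular ones in E-OEX. For Postn the interaction was -4.22 ± 1.35 and did not pass (adjusted p = 0.0642). Of 7 matrix receptors tested Itga1, a collagen binding integrin chain, had the 1 interaction that passed (2.97 ± 0.59, adjusted p = 0.00707). The count was 19 without Ctrl-LE replicate 1 and 5 without Ctrl-GE replicate 2, E-OEX-GE replicate 2 or E-OEX-GE replicate 3, and Sparcl1, Col6a4, Mfap4 and Lama3 passed with each of the 12 libraries left out.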

How the data were processed

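Per the labels' protocols, total RNA was made into libraries with an NEBNext Ultra kit. The authors' deposited values are a signal, gene read counts divided by 1 factor per library, as the values show: all were whole multiples of 1 step per library within 0.01 of a read. The submitters' processing notes name GRCm38 (mm10). Aligner, counter, annotation and scaling are not given in the sources used here, and counting may have ignored strand. Coordinates are from GENCODE M21 (GRCm38), motif windows from RefSeq. Members and lists were chosen with earlier results of these data known.

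limma 3.58.1 (R 4.3.3; lmFit and eBayes with trend, two-sided, Benjamini-Hochberg, threshold 0.05) was run on log2(value + 1), keeping genes whose mean reached 1, over all genes listed for both groups. Between genotypes, recovered reads were rescaled with TMM (edgeR 4.0.16), and the interaction used deposited values. Groups at 3 reads or fewer in every library give bounds. Fold changes of low genes are understated. The code was tested on simulated data. Alternatives included edgeR and DESeq2 1.42.0 on recovered reads. Named were all members past a threshold (16 at most, else the 8 largest rises and 8 largest falls), the extremes of each role and 4 markers. For some genes that the rule would name, values are not reported here.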

Additional observations from a re-analysis of the deposited data

Results flagged for a closer look

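Among genes listed in both the Ctrl and E-OEX tables, the genotype difference of 8 matrix genes differed between glands and lumen by the interaction test on deposited values. The interaction was 5.48 for Sparcl1, 5.02 for Col6a4, 4.14 for Lama2, 3.62 for Mfap4 and 2.78 for Lama3. It was -2.53 for Col5a2, -4.13 for Fbn2 and -4.83 for Fbln7. The values for Col6a4, Lama2 and Mfap4 rest on 3 reads or fewer in every E-OEX-LE library, so their size depends on the setting. Mfap4 was also at 3 reads in every Ctrl-LE library, so its luminal change cannot be sized.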

How the results depend on the processing

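No called member changed direction under any alternative run, and with 1 library left out 71 to 72 listed members were higher in GE in wild type and 76 in E-OEX. Of the called members, 6 of 9 in E-OEX-LE against Ctrl-LE, 1 of 4 in the glands, 28 of 34 in U-OEx-LE against Ctrl-LE, 6 of 10 between the Notch1 luminal groups and 8 of 8 in the interaction passed under every other setting, and 2, 1, 24, 2 and 4 also with each library left out in turn. The number of members called in E-OEX-LE against Ctrl-LE was 14 with DESeq2 and 18 with the glandular libraries in the fit, among 453 and 569 genes called in place of 277. In the glands it was 12 on the deposited scale, 7 with DESeq2, 8 with the replicate block and 1 with the luminal libraries in the fit, which called 258 genes in place of 670. Between U-OEx-LE and E-OEX-LE it was 17 with the glandular libraries in the fit. In the interaction it was 13 with quantile normalization and 19 with DESeq2, which called 501 genes in place of 315. The cause was not tested. With 1 library left out, the members called ranged from 2 to 13 and the genes from 56 to 323 in E-OEX-LE against Ctrl-LE, from 1 to 5 and 362 to 720 in the glands, from 28 to 45 and 2758 to 3438 in U-OEx-LE against Ctrl-LE, from 2 to 18 and 60 to 903 between the Notch1 luminal groups, and from 5 to 19 and 179 to 449 in the interaction. Same-numbered libraries did not deviate together in every pair (r from -0.33 to 0.24 in the LE comparison of E-OEX and wild type). In the glands all 3 were positive (0.040, 0.083 and 0.237) but not all above 0.1. Between LE and GE libraries of the same number, r was 0.098, 0.185 and -0.033 in wild type and 0.037, -0.157 and 0.151 in E-OEX. The numbers were not taken to pair the samples, and these values do not settle whether LE and GE libraries share animals. With the replicate block the members called were 10, 8, 35, 9 and 10 in the order above. With 3 libraries a group and Ctrl-LE libraries of unlike stromal content, the precision for stromal genes between luminal groups was low, with a standard error of 1.09 on the log2 scale for Col1a1 in E-OEX-LE against Ctrl-LE, and genes at a few reads per library are also limited by counting error.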
